A study of Rattus norvegicus with 8 samples.

Results

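The genes of the cytosolic ribosomal proteins were examined in the liver of Zucker diabetic fatty rats, all male, a rat line in which the fa allele of the leptin receptor gives obesity and diabetes. Members were the probes other than controls whose accession maps to a symbol that begins with Rpl or Rps and a digit, or to Rpsa, Rplp0, Rplp1 or Rplp2, without the Rps6k kinases and Rps19bp1. This gave 112 of 41012 probes and 76 genes, of which 76 passed the filter, so that the members made up 76 of 24130 features (47 of the large and 29 of the small ribosomal subunit). A probe passed where it lay well above background in either dye on at least 4 of 8 arrays, and each gene was read from its brightest passing probe. One of the 112 probes, a further probe of Rpl28, did not pass.

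Lean rats carried the genotype fa/+ and obese rats fa/fa, and all rats are labelled as male and 12 weeks old. In both genotypes, vehicle or testosterone undecanoate (TU, a long-acting testosterone ester given at 20 mg/kg) was injected under the skin for 4 weeks, every 3 days in the first 2 weeks and weekly in the last 2. Each of 4 lean and 4 obese arrays held vehicle liver RNA in the green dye Cy3 and TU liver RNA in the red dye Cy5. No array had the dyes exchanged, so dye bias of a probe stays in its TU ratio. The labels call the arrays biological replicates. No source used here says whether an RNA is that of 1 animal, so p-values may measure technical spread. Heterozygous lean rats are the only controls for genotype.

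Ribosomal proteins coat and shape the ribosomal RNAs of the small subunit, which reads the messenger RNA, and of the large subunit, which joins amino acids. Their messenger RNAs are among the most abundant of any liver cell. They are known for a pyrimidine tract at the very start of the transcript, the terminal oligopyrimidine tract, through which mTORC1 (a nutrient- and insulin-sensing kinase complex) sets how much of them is translated. That control acts on translation, which arrays of total RNA do not measure.

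The start regions are shown because this tract is a feature the family is known to share that the choice of members did not use. RefSeq promoters (build GRCr8) were matched for 60 of the 76 members by gene identifier. An uninterrupted run of at least 6 C or T on the gene's own strand, with at least 1 base within 5 bases of the annotated start, was present in 40 of these 60 (66.7%), against 6274 of 33469 promoters (18.7%). The same search on the other strand found a run in 8.33% of members and 22.2% of all promoters. The runs of the members were 6 to 21 bases long, with a median of 11. The next lines give 30 bases, 10 before the annotated start and 20 from it, for the members whose values recur in the sections that follow, with the run in capitals where there is one.
Rpl35: CTTCCTCTTTCTCTCgaaccgggcggcctc
Rps21: agccaCTTCCTTTCTgtgttctccgtagac
Rps23: ccttcctgCCTCTCTTCTCTCTTTCTCTCg
Rps24: ggTCCTCTTTTCCTCCTTTacagctcgggc
Rpl29: TTTCTCTTTCTCTTCCggtcccaggcgctg
Rplp0: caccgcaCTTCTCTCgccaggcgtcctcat
Rpl24: tagggaggagaTTCTCTaccctataaggtg
Rpl7a: ctccagccgagcaagatggtgagtgattat
These windows lie at chr3:43165902-43165931, minus strand (Rpl35), chr3:187724028-187724057, plus strand (Rps21), chr2:23814507-23814536, plus strand (Rps23), chr16:96507-96536, plus strand (Rps24), chr8:115947633-115947662, plus strand (Rpl29), chr12:46718371-46718400, minus strand (Rplp0), chr11:58128386-58128415, minus strand (Rpl24) and chr3:30637126-30637155, plus strand (Rpl7a). Rpl35 and Rpl29 both carried a run of 18 bases, of which the window shows the part near the start, and their TU ratios lay at opposite ends of the family in lean rats. Annotated starts can differ from the start used in liver, so a window without a run, as for Rpl7a, says only that these letters are not there.

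Member probes were among the brightest on the arrays, with 50 of the 76 among the 500 brightest of 24130 features and 64 among the 1000 brightest. Rps12l4 was the exception near background, well above it in Cy3 on 5 arrays and in Cy5 on 3. The SD of the log2 ratios over all features reached 0.46 for obese replicate 2, where the remaining arrays had 0.11 to 0.25. Obese replicates 1, 3 and 4 lost 5, 4 and 6 of the members' brightest probes to spots marked as non-uniform and obese replicate 2 lost 1, against 0 on every lean array. As a result 66 members had values on all 8 arrays, Rpl14 had 1 obese array, Rps2 had 2 and Rpl36al1 had none. The lean group filled slide 1 and the obese group slide 2, and the scan and the version of the probe annotation split in the same way. The effects of slide and scan cannot be told apart from that of genotype. The accession differed between the annotation versions for 13137 of the 41012 probes. Names came from the newer version where it gave one.

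The question of whether TU changed these transcripts in lean liver came first. None of the 76 members passed the threshold (Benjamini-Hochberg adjusted p under 0.05 in limma over all features), where 0.204% of all 24073 features tested did (0.133% higher and 0.0706% lower). At an unadjusted p under 0.05, 9 members were higher and 7 lower, against 6.57% and 8.7% of all features. The median member log2 ratio was 0.04 with 48 members above 0, and the median over all features was -0.02. The arrays' member medians were 0.05, 0.05, 0.13 and -0.06 on lean replicates 1 to 4, so lean replicate 4 lay on the other side of 0 from the rest.

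The highest lean values were those of Rpl35, a large subunit protein near the exit of the nascent chain. Its log2 ratios were 0.48, 0.41, 0.54 and 0.25 on the 4 lean arrays, a mean of 0.42 ± 0.0833 SE, limma adjusted p = 0.0869 (1.34-fold). All 4 arrays lay above 0, and the mean was several times its SE, but the value did not pass over all features. Rpl41, which encodes the shortest ribosomal protein, gave 0.38, 0.59, 0.43 and 0.15 (mean 0.39 ± 0.083 SE, limma adjusted p = 0.0992). Rpl13, Rps26 and Rps2, a small subunit protein at the mRNA entry channel, followed with means of 0.37, 0.35 and 0.34. In each of these, all 4 lean arrays were above 0. The further Rpl13 probe had a lean mean of -0.04, with lean replicates 1 and 2 at -0.18 and -0.08. Over the 4 probes of Rps2 the lean means ran from 0.08 to 0.34.

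The lowest was Rpl29, a basic large subunit protein. Its lean log2 ratios were -0.33, -0.60, -0.27 and -0.25 (mean -0.36 ± 0.064 SE, limma adjusted p = 0.0733), the smallest adjusted p of any member. All 4 arrays were below 0. Further passing probes of Rpl29 had lean means of -0.10, -0.21 and -0.13. Their highest lean arrays lay above 0, at 0.07, 0.01 and 0.10. Rpl39, at the polypeptide exit tunnel, gave -0.10, -0.22, -0.33 and -0.40 with a mean of -0.26. Rpl18 (mean -0.26) had 1 lean array above 0. The small subunit gene Rps24 had a mean of -0.23, with every lean array below 0. In all, 16 members had 4 lean arrays above 0 and 9 had 4 below, where 12.2% and 18.3% of all features did.

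The lean calls changed with 1 obese array. Because limma estimates one spread over both genotypes, leaving out obese replicate 2 left the lean ratios as they were and moved the lean member calls from 0 to 11, of which 7 were higher (Rpl13, Rpl22, Rpl35, Rpl37l1, Rpl41, Rps21 and Rps26) and 4 lower (Rpl29, Rpl30, Rpl39 and Rps24). In that limma fit Rpl35 had an adjusted p of 0.0104 and Rpl29 of 0.0254. Over all features the same step moved the lean calls from 32 higher and 17 lower to 447 higher and 663 lower. With the lean arrays alone, Rpl35 passed (limma adjusted p = 0.04) and no other member did.

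**Figure D1:**
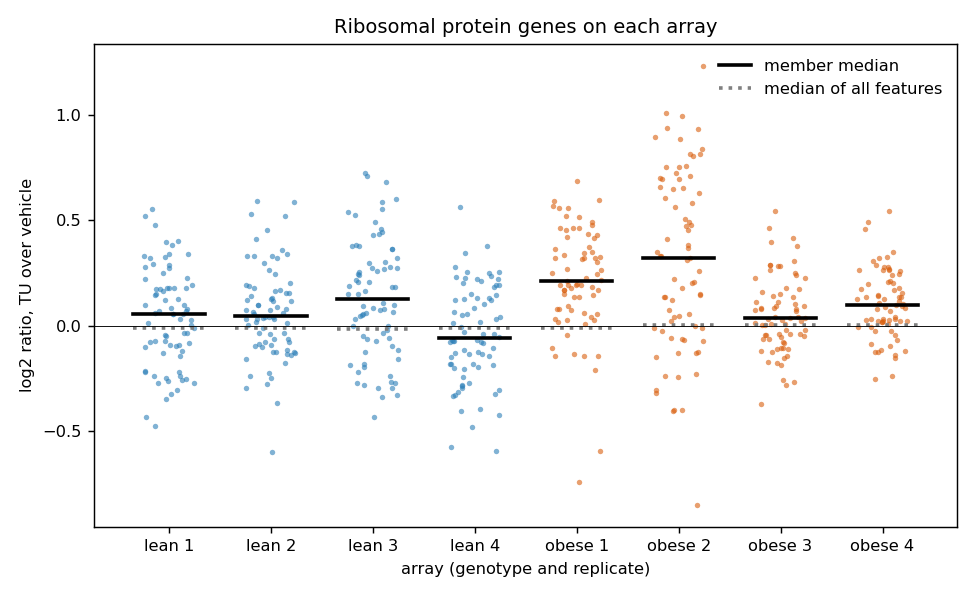
Log2 ratio of TU over vehicle (vertical axis) of the members on each array (horizontal axis), with 1 point per gene, the member median as a black bar and the median of all features as a dotted grey bar. The member medians range from -0.06 on lean replicate 4 to 0.32 on obese replicate 2, where the points are also the most spread out.

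In obese liver the members as a group lay further above 0. No member passed the threshold, where 0.0124% of all 24128 features did, but 29 of 75 members were higher at an unadjusted p under 0.05 and 4 lower, against 6.54% and 6.09% of all features. The member median was 0.14 with 60 of 75 above 0, and the median over all features was -0.01. Of the 66 members with 4 obese arrays, 33 were above 0 on all 4 and 4 were below on all 4, against 13.2% and 10.3% of features. The member medians were 0.21, 0.32, 0.03 and 0.10 on obese replicates 1 to 4, so the height differed between arrays and was least on replicate 3. Without obese replicate 2, the member median was 0.10 and that of all features was -0.00345. The small subunit median was 0.12 and the large subunit median 0.17.

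Rpl35 was again high, at 0.49, 0.94, 0.46 and 0.54 on the obese arrays (mean 0.61 ± 0.0833 SE, limma adjusted p = 0.162, 1.53-fold). All 4 arrays were above 0.4, and replicate 2 stood highest. Rps21, a small subunit protein, gave 0.56, 0.89, 0.40 and 0.49 (mean 0.59 ± 0.0896 SE, limma adjusted p = 0.17, 1.5-fold). Rps23, which lies at the decoding centre, gave 0.44, 1.23, 0.55 and 0.20 (mean 0.60 ± 0.158 SE, limma adjusted p = 0.316). Its replicate 2 was far above the rest. Rpl34 (mean 0.53, 3 arrays) and Rps12 (mean 0.53) followed, and Rpl14 had a single obese value of 0.75.

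The acidic stalk proteins, which recruit elongation factors, gave differing values. Rplp0, the base of the stalk, was the lowest member, at -0.15, -0.85, -0.12 and -0.12 on the obese arrays (mean -0.31 ± 0.123 SE, limma adjusted p = 0.385). Its mean was set by replicate 2, while the other arrays were close to each other. Rplp1 gave 0.45, 0.63, 0.14 and 0.27 (mean 0.37) and Rplp2 gave 0.25, -0.01, -0.11 and 0.02 (mean 0.04). The other low members were Rpl18 (-0.27), Rpl3, which shapes the peptidyl transferase centre (-0.18), Rpl29 (-0.17) and Rps3, at the mRNA entry channel (-0.17). None of these passed after adjustment.

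The members' height was set beside that of other bright features. Over the 450 features among the 500 brightest that are not members, the median TU log2 ratio was 0.11 in lean and 0.08 in obese rats, against 0.05 and 0.19 for the 50 members there. The median obese minus lean difference was -0.05 for these other features and 0.19 for the members. Normalization moved the medians: centring each array on its median in place of loess put the member median 0.22 below that of all features in lean rats (-0.22) and 0.53 above it in obese rats. The authors' own log ratios put it at -0.02 in lean (all features -0.03) and 0.13 in obese rats (all features 0.00237). With the scanner's processed signals, 19 of 76 members were above 0 in lean rats, against 34.6% of all features. The lean median was -0.097 for members and -0.105 for all features. In obese rats 43 of 75 members were above 0, against 39.5% of all features, with a member median of 0.04 (all features -0.08). At an unadjusted p under 0.05, 13 of the 75 were higher in that setting, against 1749 of 24128 features. The part of brightness and of dye in the group's height was not tested.

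Whether the TU response differed between the genotypes was asked with the obese minus lean contrast. Of the 75 members with values in both genotypes, 53 had the higher ratio in obese rats, and the median difference was 0.11 against 0.00262 over all features. No member passed, where 0.00415% of 24071 features did. At an unadjusted p under 0.05, 15 members had the higher and 1 the lower ratio in obese rats, against 5.3% and 2.64% of features. The median difference was smaller without obese replicate 2, at 0.05 for members and 0.01 for all features. Both genotypes' ratios were above 0 in 42 members and below 0 in 10, while 18 were below 0 in lean and above 0 in obese rats and 5 the reverse. Over the 75 members the lean and obese means had a Pearson correlation of 0.58, a description across genes that share arrays, dyes and probes.

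Of the 66 members with 8 values, 5 had every obese ratio above every lean ratio and 1 had every obese ratio below, against 3.29% and 1.95% of all features. In 2 members, Rps20 and Rps24, every lean array also lay below 0 and every obese array above it, against 0.905% of features, and in 0 members the reverse held, against 0.362%. Rps20 gave -0.04, -0.03, -0.24 and -0.07 in lean and 0.46, 0.71, 0.11 and 0.28 in obese rats (difference 0.49 ± 0.125 SE, limma adjusted p = 0.614). Rps24, a small subunit protein mutated in some inherited anaemias, gave -0.22, -0.10, -0.30 and -0.31 in lean and 0.01, 0.21, 0.10 and 0.09 in obese rats (difference 0.33 ± 0.0729 SE, limma adjusted p = 0.614). Rpl38 gave -0.27, -0.37, -0.10 and -0.18 and 0.32, 0.33, -0.02 and 0.21 (difference 0.44), with obese replicate 3 just below 0 and no overlap. The other 2 were Rpl30 (difference 0.29) and Rpl21 (difference 0.23), chosen after their values were seen. The 1 member separated in the other direction was Rps3, which had the lowest difference, at 0.17, 0.12, 0.22 and -0.04 in lean and -0.21, -0.23, -0.06 and -0.16 in obese rats (difference -0.28 ± 0.0758 SE, limma adjusted p = 0.614).

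**Figure D2:**
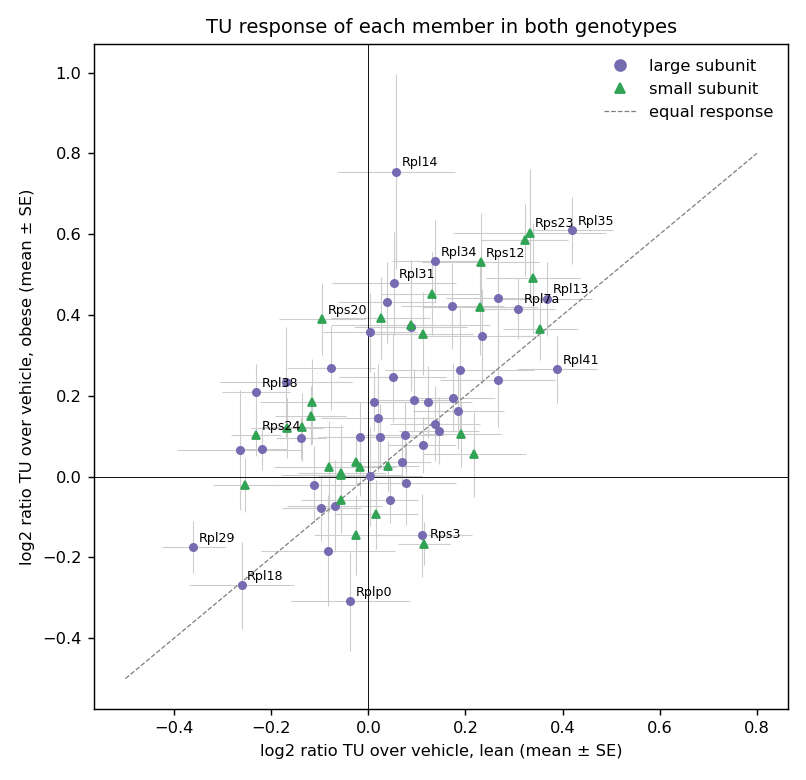
Mean log2 ratio of TU over vehicle in lean (horizontal axis) and obese rats (vertical axis) for 75 members, with SE bars from the limma fit and a dashed line of equal response; Rpl14 rests on 1 obese array. Of the 75 points, 53 lie above the line, with Rpl35 high on both axes and Rpl29 and Rpl18 low on both.

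None of the other genes fixed by name passed for TU. Rps6, the substrate of the ribosomal S6 kinases, ranged from -0.43 to 0.68 on the lean arrays (mean 0.09) and from 0.19 to 0.73 on the obese arrays (mean 0.37). Rpl5 and Rpl11, which bind the p53 regulator Mdm2 when ribosome assembly is disturbed, had lean means of 0.27 and -0.11 and obese means of 0.24 and -0.02. Rpsa, also known as the laminin receptor, had means of 0.02 and -0.09. Rpl4 had 0.11 and -0.14, and Rpl10, added late in large subunit assembly, had 0.19 and 0.16. Rpl13a and Rpl32, both used as reference genes, had 0.02 and 0.14 in lean and 0.14 and 0.13 in obese rats. Rps14 and Rps19, both linked to anaemias of low gene dose, had 0.22 and -0.06 in lean and 0.06 and 0.00 in obese rats. Of the paralogs on the array by name, Rpl22l1 had 0.19 and 0.26 beside 0.23 and 0.35 for Rpl22. The other genes named by rule were Rpl7 at 0.02 and 0.10, Rps27 at -0.17 and 0.12, and the X-linked Rps4x at -0.02 and 0.02.

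Before obese and lean rats are compared within a dye, several single spots need describing, since a channel's signal, unlike a ratio within one spot, depends on the state of each spot. On replicate 1 of both genotypes a common area of the array was dark. There, 91 of 26967 probes were in Cy3 more than 4-fold below the median of the other arrays of their genotype on both arrays, and these lay in rows 227 to 285 and columns 33 to 48 of a grid of 532 by 85. On replicates 2, 3 and 4 no probe was that dim in both genotypes. Counted on each array alone, 402, 8, 67 and 112 probes were that dim in Cy3 on obese replicates 1 to 4. On lean replicates 1 to 4 the counts were 97, 0, 0 and 1. Dim spots thus fell mostly on obese arrays, where they lower an obese minus lean difference. Their part in the members' differences was not tested. Of the members' brightest probes, 2 lay inside, those of Rps23 and Rps3.

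Rps23 had log2 Cy3 signals of 10.19, 15.55, 16.22 and 15.70 on the lean arrays and 8.18, 15.60, 16.37 and 15.26 on the obese arrays. Replicate 1 was low in both genotypes and the others were alike. Rps3 had 11.20, 13.80, 14.38 and 14.07 and 10.31, 14.73, 14.71 and 13.92. Rpl23, just outside the area at row 224 and column 36, had 13.52, 14.82, 14.77 and 14.73 and 11.69, 14.99, 15.18 and 14.92. The area spans only the probes more than 4-fold dim on both arrays, so leaving it out kept dim spots such as that of Rpl23. Rpl3, Rps26 and Rpl37al2 were instead low on obese replicate 4 alone, in both dyes. Rpl3 had Cy3 signals of 12.19, 12.01, 12.12 and 12.32 in lean and 11.80, 11.68, 11.58 and 6.79 in obese rats. Rps26 had 11.97, 12.01, 12.14 and 12.25 and 11.16, 11.21, 11.47 and 7.79, and Rpl37al2 had 12.07, 11.97, 12.04 and 12.10 and 11.04, 10.50, 10.66 and 6.90. Their ratios on the same array were 0.21, 0.17 and 0.10, so both dyes had dropped together.

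**Figure D3:**
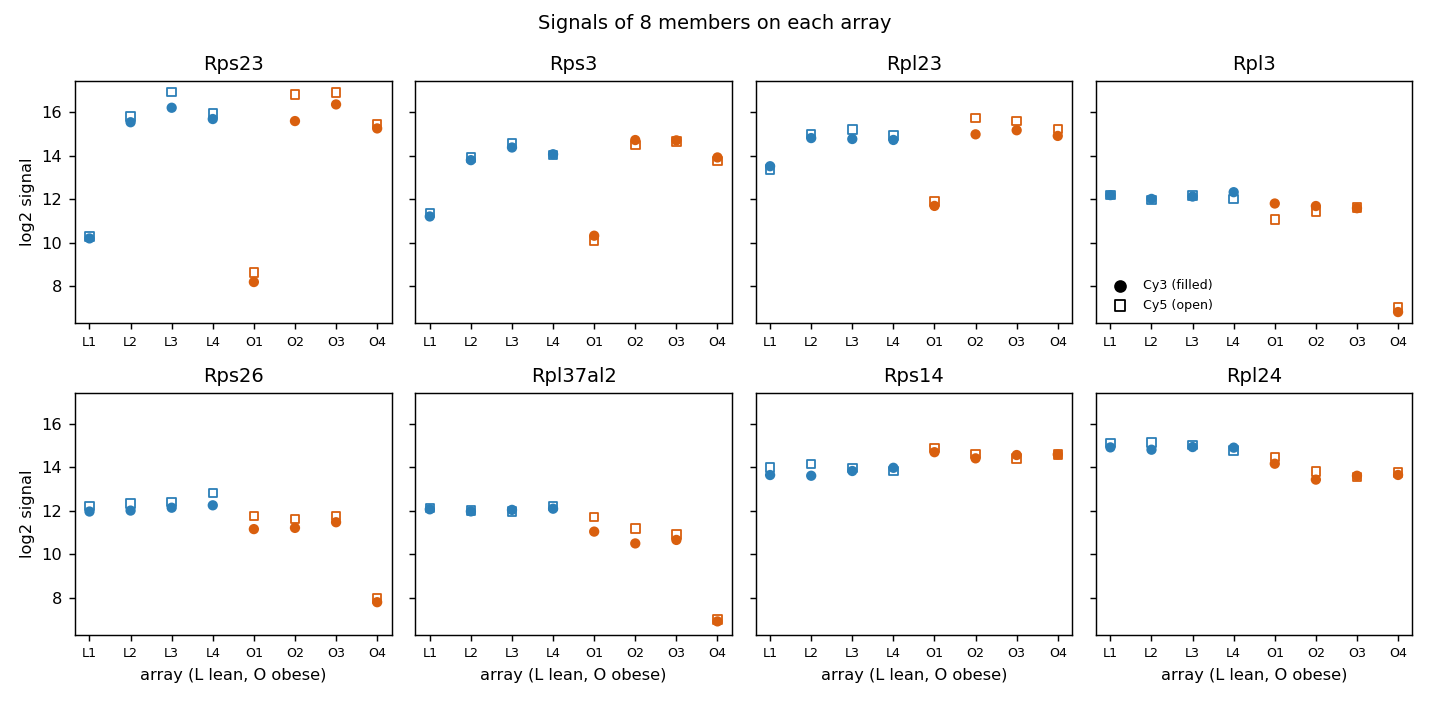
Log2 signal (vertical axis) of 8 members on the 4 lean (L, blue) and 4 obese (O, orange) arrays, with Cy3 as filled circles and Cy5 as open squares. Rps23, Rps3 and Rpl23 drop on replicate 1 of both genotypes and Rpl3, Rps26 and Rpl37al2 on obese replicate 4, while Rps14 and Rpl24 separate the genotypes on every array.

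Under vehicle (Cy3), more members were lower than higher in obese rats. Of 75 members tested, 11 were lower and 4 higher past the threshold, where 7.41% of all 24071 features were lower and 7.54% higher. The median member difference, obese minus lean, was -0.24 against 0.01 over all features, with 58 of 75 members below 0. The small subunit median was -0.37 and the large subunit median -0.19. This order was not stable: the medians were -0.31 and -0.29 with the mean of a gene's probes. With the scanner's processed signals they were -0.18 and -0.32. Without the dark area the small subunit median was -0.28. Of the 66 members with 8 values, 21 had all obese arrays below all lean arrays and 5 all above, against 12.7% and 13.3% of features. The member median minus that of all features was below 0 under all 18 alternatives tried, from -1.32 to -0.18. Over the 450 other features among the 500 brightest, the median difference was 0.09. With the scanner's processed signals, 8 of 75 members were lower and 0 higher, of which 2 were among the 15. In that setting 2741 of all 24071 features were lower and 2964 higher. Leaving out any 1 lean array left 5 or 6 members, all among the 15, with 812 to 924 of all features lower and 683 to 772 higher. Leaving out obese replicate 1 gave 24 members, the 15 included, with 2738 of 24068 features lower and 2303 higher.

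Rpl24, which takes part in the contact between the subunits, was the clearest of the lower genes. Its Cy3 signals were 14.92, 14.82, 14.94 and 14.91 in lean and 14.17, 13.44, 13.62 and 13.65 in obese rats (-1.18 ± 0.147 SE, limma adjusted p = 0.00291, 2.26-fold lower). The groups did not overlap. Rps19 had 14.63, 14.34, 14.46 and 14.60 against 13.92, 13.90, 13.93 and 13.54 (-0.68 ± 0.109 SE, limma adjusted p = 0.008), but with the scanner's processed signals it was on the other side of 0, at 0.30. Rpl7a had 16.28, 16.29, 15.97 and 16.09 against 15.68, 15.19, 15.26 and 15.48 (-0.76 ± 0.126 SE, limma adjusted p = 0.00942), where its other probe gave 0.16. Rpl22, an RNA-binding large subunit protein that is dispensable for translation in many cells, was lower by 1.05 (-1.05 ± 0.281 SE, limma adjusted p = 0.045), a call kept under 8 of 18 alternatives. Rpl13a, Rpl28, Rps20 and Rpl9 were lower with differences from -0.62 to -0.46, and the call of Rpl28 was kept under 9 of 18. Rpl14 rested on 1 obese array (-0.70).

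Rps2 passed on its brightest probe with 2 obese arrays (-1.20 ± 0.239 SE, limma adjusted p = 0.0292), but its other probes, each on 8 arrays, gave differences of 0.58, 0.30 and 0.15. The mean over its probes was 0.04. Rpl37al2, Rpl3, Rps26 and Rps15 had the 4 lowest differences, at -2.27, -1.70, -1.69 and -1.24, and did not pass (limma adjusted p from 0.0882 to 0.331). Without obese replicate 4 the first 3 were smaller and passed in limma: Rpl37al2 at -1.31 (adjusted p = 0.00321), Rps26 at -0.81 (adjusted p = 0.00755) and Rpl3 at -0.47 (adjusted p = 0.0264). Rps15, whose obese replicate 2 was low, came to -0.79 without that array (limma adjusted p = 0.0106). For each of these genes the array left out was the one seen to be low, which narrows the spread, so these adjusted p-values are descriptions and not tests. Over all features, 1346 were lower and 1173 higher without obese replicate 4, and 1978 and 2709 without obese replicate 2.

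The 4 genes higher in obese rats were Rps14, Rpl15, Rpl10 and Rpl41. Rps14 had Cy3 signals of 13.65, 13.62, 13.84 and 13.98 in lean and 14.70, 14.42, 14.57 and 14.60 in obese rats (0.80 ± 0.0993 SE, limma adjusted p = 0.00286, 1.74-fold higher). No lean array reached the lowest obese array. Rpl15 had 13.83, 13.94, 13.75 and 13.81 against 14.30, 14.51, 14.31 and 14.28 (0.52 ± 0.0705 SE, limma adjusted p = 0.00435), where a dimmer probe gave -0.19. Rpl10 was higher by 0.45 and Rpl41 by 0.33, calls kept under 5 and 10 of the 18 alternatives, where those of Rps14 and Rpl15 were kept under 15 and 14. With each channel centred on its median in place of loess, these 4 genes were below 0, at -0.44, -0.73, -0.96 and -1.03, none past the threshold.

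Of the other genes fixed by name, none passed in Cy3. Rplp0, Rplp1 and Rplp2 differed by 0.13, -0.10 and 0.23. Rps6 differed by -0.85 (limma adjusted p = 0.0823), with obese replicate 4 inside the lean range. Rpl4, Rpl5, Rpl11, Rpl32 and Rpsa differed by 0.09, -0.24, 0.24, -0.13 and 0.13. Rps23 and Rps3 had differences of -0.56 and 0.06 with SEs of 2.1 and 1.13, the widest of the members.

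Under TU (Cy5), 6 of 75 members were lower and 4 higher in obese rats, where 8.95% of all features were lower and 11.8% higher. With median centring none of these 10 passed, and with the scanner's processed signals 14 members passed (7 higher and 7 lower), 4 of them among the 10. Over all 24071 features, median centring gave 0 higher and 0 lower, and processed signals gave 4133 and 3462. The median difference was -0.11 against 0.02 over all features, with 47 of 75 below 0, and 11 of 66 members had all obese arrays below all lean arrays (11.7% of features) and 5 all above (15.5%). The Cy5 and Cy3 differences and the TU contrast come from the same 8 arrays, so the smaller Cy5 median and the higher TU ratio in obese rats are one measurement seen from 2 sides.

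Rpl22 (-0.94 ± 0.151 SE, limma adjusted p = 0.0049), Rpl24 (-1.12 ± 0.194 SE, limma adjusted p = 0.00666), Rpl7a (-0.65) and Rps2 (-1.05, 2 obese arrays) were lower as in Cy3. Rpl22 had Cy5 signals of 13.73, 13.32, 13.52 and 13.38 in lean and 12.52, 12.18, 12.66 and 12.84 in obese rats, without overlap. Its paralog Rpl22l1 (-0.42 ± 0.116 SE, limma adjusted p = 0.0369) and Rps12 (-0.24 ± 0.0719 SE, limma adjusted p = 0.0474) were lower in Cy5 past the threshold, and in Cy3 had -0.50 and -0.54 without passing. The Cy5 calls of Rpl22l1 and Rps12 were kept under only 9 and 3 of the 18 alternatives. Their further probes gave Cy5 differences of -0.38 and -0.11. Rps14 (0.64 ± 0.109 SE, limma adjusted p = 0.0062) and Rpl15 (0.48) were higher as in Cy3. Rpl36a (0.56 ± 0.129 SE, limma adjusted p = 0.0203) and Rpl31 (0.55 ± 0.123 SE, limma adjusted p = 0.0176) also passed. Rpl31 had 0.12 in Cy3, and its Cy5 signals were 14.92, 15.13, 15.47 and 15.29 in lean and 15.60, 15.74, 15.75 and 15.91 in obese rats. Its further probes gave smaller Cy5 differences of 0.20 and 0.14. The Rpl31 call was kept under 14 of 18 alternatives and lost with the mean of the probes. In Cy5, same-numbered lean and obese arrays deviated together (r from 0.18 to 0.61), and with the replicate number as a block 14 members passed, 8 of them among the 10. Rpl22l1 (limma adjusted p = 0.0648) and Rps12 (adjusted p = 0.081) did not. Leaving out obese replicate 1 gave 24 of 75 members, 9 of them among the 10. Over all features the block gave 2614 higher and 2135 lower of 24071. Leaving out obese replicate 1 gave 4243 higher and 3443 lower of 24068.

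**Figure D4:**
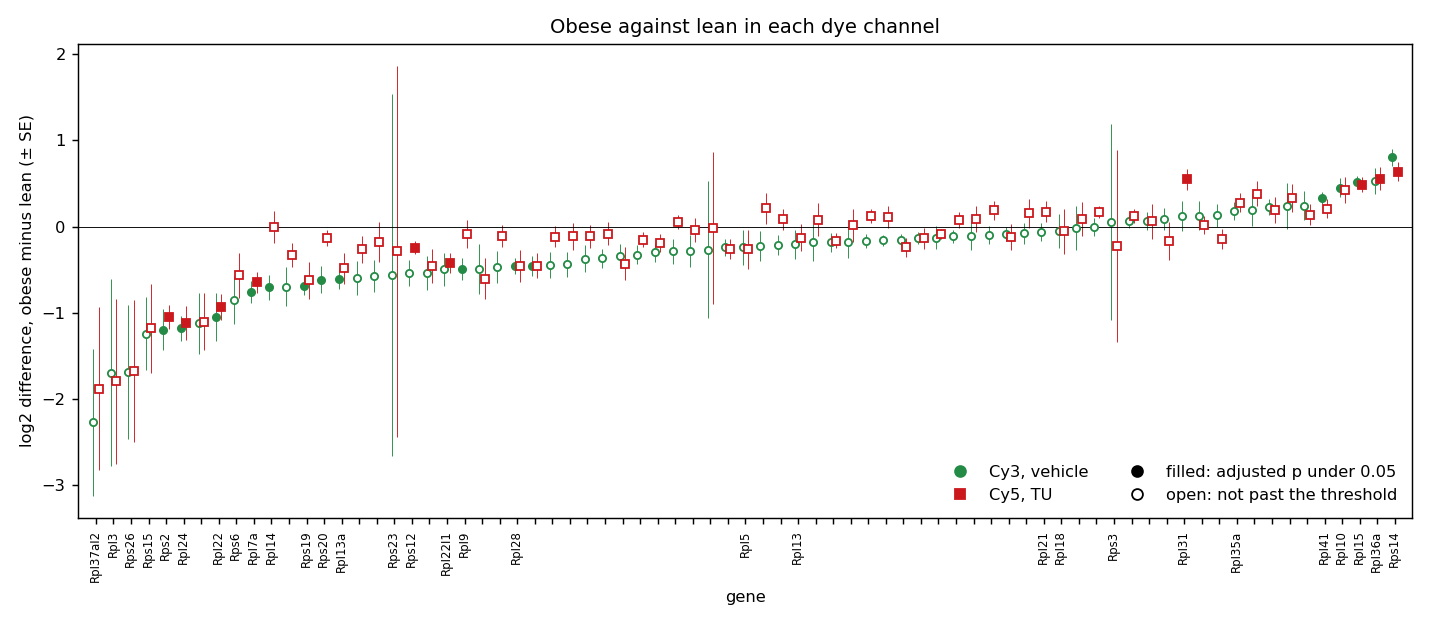
Log2 difference of obese minus lean rats (vertical axis, with SE from the limma fit) for 75 members (horizontal axis, with the names of some) in order of the Cy3 value, in Cy3 (vehicle, green circles) and Cy5 (TU, red squares), filled where the adjusted p is under 0.05. The Cy3 points of 58 members lie below 0, and the bars of Rps23 and Rps3, with replicate 1 dark in both genotypes, are the widest.

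Probes of one gene could be set side by side for 26 members. Their lean TU means had opposite signs in 8 of the 26, with a median range of 0.11 and a largest of 0.41. In obese rats 8 also had opposite signs, and the median range was 0.14. Rpl7a had obese means of 0.42 and -0.17, and Rpl13 had 0.44 and -0.16. For obese minus lean in Cy3 the median range was 0.32, 5 genes had a range over 1 and the largest was 3.51, that of Rpl21. One of its 5 probes had Cy3 signals of 13.48, 13.35, 13.18 and 13.28 on the lean arrays and 10.12 and 9.39 on the 2 obese arrays that kept it, while the brightest probe differed by -0.06. The wide ranges of Rpl18, Rpl35a and Rpl5 came with 1 or 2 dim obese spots: the further Rpl18 probe read 7.83 on obese replicate 1 and the further Rpl35a probe 7.51 on obese replicate 3. RefSeq lists 1139 rat symbols of this name pattern, of which 839 are pseudogenes, and a probe can also bind transcripts of a near-identical copy, so each value is that of a probe and may hold more than 1 locus.

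**Figure D5:**
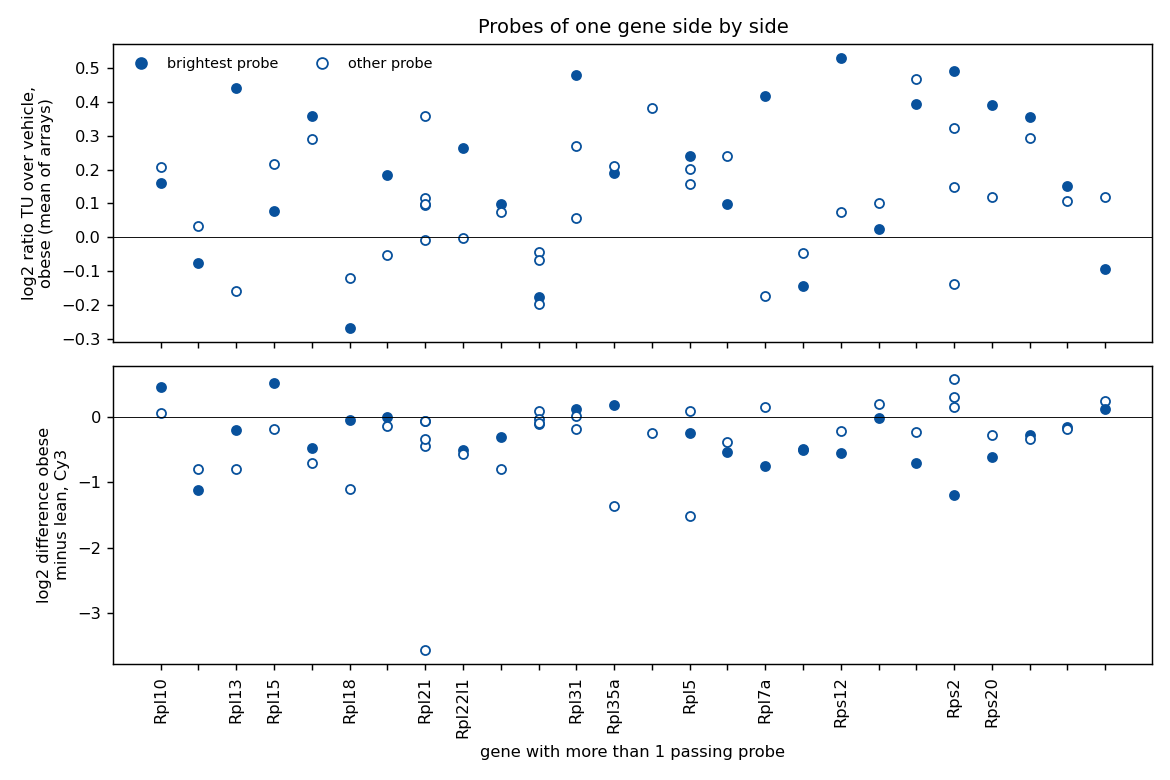
Mean TU log2 ratio in obese rats (upper panel) and obese minus lean log2 difference in Cy3 (lower panel) for each passing probe of the 26 members with more than 1, some of them named, with the brightest probe filled. Probes of Rpl7a and Rpl13 lie on both sides of 0 in the upper panel, and one Rpl21 probe lies far below the other Rpl21 probes in the lower.

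Other genes of the translation machinery were read from lists. None of them had a member past the threshold for TU in lean or obese rats or for the difference. At an unadjusted p under 0.05, 6.57% of all features were higher and 8.7% lower in lean rats and 6.54% and 6.09% in obese rats. Of 19 measured translation factors whose transcripts also start with the tract, 4 were higher and 4 lower in lean and 2 and 2 in obese rats at an unadjusted p under 0.05, with medians of -0.02 and 0.06. The elongation factors Eef1a1 (-0.37 ± 0.159 SE, limma adjusted p = 0.393) and Eef2 (-0.41 ± 0.229 SE, adjusted p = 0.453) had the lowest obese values. The chaperone Npm1 (0.40) and the nascent chain factor Naca (0.33) had the highest lean values. Of 26 initiation factors, 7 were lower in lean and 7 in obese rats at an unadjusted p under 0.05, with medians of -0.06 and -0.11, and subunits of the initiation factor complex Eif3a (-0.59 in lean) and Eif3b (-0.43 in lean, -0.52 in obese rats) had the lowest lean values. Of 15 measured genes of an mTORC1 list, 14 were below 0 in lean and 11 in obese rats, with medians of -0.10 and -0.05. Of all features, 42.9% were above 0 in lean and 47.7% in obese rats. The list mixes activators with inhibitors such as Tsc2 and Sesn2. It also holds kinases such as Rps6ka1 that are not part of mTORC1, so a shared sign gives no direction of the pathway. The 63 mitochondrial ribosomal protein genes, which build a separate ribosome, had TU medians of -0.04 and 0.02.

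The same lists were read for obese against lean rats, where 7.41% of all features were lower and 7.54% higher in Cy3 and 8.95% and 11.8% in Cy5. Of 33 measured ribosome assembly factors, 6 were lower and 1 higher in Cy3 and 9 lower and 0 higher in Cy5, with medians of -0.08 and -0.21 (all features 0.01 and 0.02). The nucleolar GTPase Gnl3 (-1.36 and -1.43) and Gar1, a protein of the pseudouridylation particles (-0.92 and -0.88), had large differences in Cy3 and Cy5, and Nop10, Mrto4, Nob1 and Ebna1bp2 were lower in both. Utp4 was the higher gene in Cy3 (0.55), and Myc, a driver of ribosome assembly genes, was lower in Cy5 (-1.04). Among the 63 mitochondrial ribosomal protein genes, 8 were higher and 4 lower in Cy3 and 10 and 5 in Cy5, shares near those of all features, with Mrpl2 (-1.94 and -2.14) and Mrpl40 (-1.35 and -1.43) the lowest. In the mTORC1 list the activating GTPase Rheb was higher in both dyes (0.52 and 0.57) and Mtor in Cy5 (0.37). Of the translation factors, Eef1a1 was higher in Cy3 (0.78), and Eef1d (0.52) and Tpt1 (0.34) in Cy5. Of the initiation factors, Eif2s1 was higher in Cy5 (0.38).

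The liver label was borne out by the hepatocyte list, of which 9 of 9 genes were measured, with a summed log2 Cy3 signal of 19.4 to 19.9 over the 8 arrays and 1 gene (Ambp) higher under TU in lean rats. Markers of other cells were read beside the members, because immature red cells and immune cells also make ribosomal proteins. The 10 measured of 14 erythroid genes were all above 0 for TU in lean rats (median 0.47, 2 past the threshold) and had a median of -0.00365 in obese rats. Their summed log2 signal was 16.5 to 17.5 in Cy3 and 18.2 to 18.6 in Cy5 on the lean arrays, and 17.3 to 18.6 and 18.0 to 18.5 on the obese arrays. The 12 measured of 13 Kupffer cell genes had TU medians of -0.16 and -0.17, with 11 and 12 below 0. Their summed log2 signal was 15.6 to 16.0 in Cy3 and 15.6 to 15.7 in Cy5 on the lean arrays. For obese against lean rats, 2 of 7 stellate cell genes were higher and 1 (Lrat, -0.94) lower in Cy3, and 4 were higher and 1 (Lrat, -0.70) lower in Cy5. Of the erythroid genes, 2 of 10 were higher in Cy3 and 1 (Hbe2, -0.94) lower in Cy5. Of 12 Kupffer cell genes none passed in Cy3, and in Cy5 C1qa (-1.18) and Clec4f (-0.91) were lower and Vsig4 (0.88) higher. Of 5 endothelial genes 1 was lower in Cy3 and 3 in Cy5, with Tek at -0.70 and -0.99. Of 7 lymphocyte genes 2 were lower in both dyes, with Cd3d at -0.82 and -0.91, and of 2 adipocyte genes Cfd was lower at -0.82 and -0.96. Of 5 pancreas genes Cel was lower at -0.23 and -0.27. Of 9 hepatocyte genes 3 were higher in Cy3, and 2 were higher and 1 lower in Cy5. None of the endothelial, stellate, cholangiocyte, lymphocyte, neutrophil, pancreas and adipocyte genes passed for TU in either genotype. The part of these cells in the members' values was not tested, and in whole liver a change in cells cannot be told apart from a change in RNA per cell.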

How the data were processed

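Liver RNA of 4 lean and 4 obese arrays was read on two-colour Agilent arrays scanned with Agilent Feature Extraction 10.7.3.1, per the submitters' processing notes. The deposited files hold, per the file headers, spot intensity as median foreground and background signals, processed intensity, a log10 ratio of Cy5 over Cy3 and flags for background and uniformity. The authors' deposited value table holds log2 ratios: against the scanner's log10 ratios its columns had slopes of 3.33 to 3.38, so it is in log2 with TU over vehicle, and its column medians were 0.0855, 0.0666, 0.0745, 0.0662, 0.0792, 0.139, 0.0632 and 0.0459. Whether it was centred is unknown.

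Median signals, used because the files held no mean signals, were corrected by normexp (offset 50) and loess within arrays, with Aquantile between arrays for comparisons within a dye. Spots marked as non-uniform and control spots were left out. Of 41012 probes, 26967 passed and gave 24130 features (1 per named gene, else 1 per probe). Fits used limma 3.58.1 in R 4.3.3 over all 8 arrays, with Benjamini-Hochberg adjustment over all features. They were tested on simulated data. Figures were drawn with matplotlib 3.10.9. The scanner marked 58.1% to 68.9% of the probes as well above background in Cy3 and 50.3% to 60.5% in Cy5, and the number of arrays limits precision.

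Members and lists were chosen with earlier results of these data known. Named genes were, per comparison, members past the threshold (10 of smallest p at most), the 5 highest and 5 lowest, and a fixed set of stalk, entry-channel, disease-linked and paralogous genes. Rpl23 was named after its values were seen, and some values of single members are not reported here. Same-numbered lean and obese arrays deviated with r of -0.10 to 0.15 for ratios, -0.05 to 0.62 in Cy3 and 0.18 to 0.61 in Cy5, so the number was read as a possible pairing in Cy5 alone. The Cy5 values reported come from the fit without pairing, and the block was an alternative. Alternatives covered background, normalization, filter, probe choice, spread, block and left-out arrays. Leaving out the dark area, or replicates 1 and 4 of both genotypes, was added after seeing the data.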

Additional observations from a re-analysis of the deposited data

Results flagged for a closer look

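Of 260 groups of 4 arrays tested over the named members, 29 held an array whose gap to its nearest neighbour exceeded the critical share of the range in Dixon's test at the 95% level. Chance gives about 1 in 20 for unrelated groups not chosen by their values. Many of these members were named for their values, and the ratio, Cy3 and Cy5 of a spot count as separate groups. The 29 therefore cannot be judged against that rate. On lean replicate 4, the log2 Cy5 signal was 16.30 for Rpl41, 11.41 for Rplp0 and 14.69 for Rpl7. On lean replicate 2, the log2 ratio was 0.17 for Rplp2. On lean replicate 4, the log2 Cy3 signal was 15.87 for Rpl32. On lean replicate 1, the log2 Cy3 signal was 10.19 for Rps23. On lean replicate 1, the log2 Cy5 signal was 10.27 for Rps23. On lean replicate 3, the log2 ratio was -0.24 for Rps20. On lean replicate 2, the log2 Cy5 signal was 14.39 for Rpl38. On obese replicate 2, the log2 ratio was 0.94 for Rpl35, -0.85 for Rplp0, 0.76 for Rpl22l1 and 0.99 for Rpl31. On obese replicate 4, the log2 Cy3 signal was 7.79 for Rps26, 13.54 for Rps19, 6.79 for Rpl3 and 6.90 for Rpl37al2. On obese replicate 4, the log2 Cy5 signal was 7.96 for Rps26, 7.01 for Rpl3, 10.46 for Rpl22l1 and 13.82 for Rpl7. On obese replicate 3, the log2 ratio was -0.28 for Rpl29. On obese replicate 1, the log2 Cy5 signal was 14.23 for Rps24 and 14.10 for Rpl11. On obese replicate 2, the log2 Cy3 signal was 14.03 for Rps27, 14.28 for Rps20 and 14.51 for Rpl15. On obese replicate 1, the log2 Cy3 signal was 8.18 for Rps23. On obese replicate 1, the log2 ratio was 0.27 for Rpl15.

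In 2 members every lean array lay below 0 and every obese array above it for TU, against 0.905% of all features with 8 values, and the reverse held for 0 of 66 members and 0.362% of features. The difference was 0.33 for Rps24 and 0.49 for Rps20, and in the limma fit over all features neither passed (adjusted p = 0.614 and 0.614).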

How the results depend on the processing

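The number of members past the threshold for TU in lean rats was 0 as reported, 1 without background correction, 1 with processed signals, 1 with the lean arrays alone and 6 with median centring, and 0 to 11 when 1 array was left out. In obese rats it was 0, and 3 without background correction. For obese over lean in Cy3 it was 15 as reported, 1 with median centring, 8 with processed signals, 7 with the replicate block (where the numbers do not pair the arrays), 5 to 24 with 1 array left out and 0 without replicates 1 and 4. In Cy5 it was 10, 0 with median centring, 14 with the replicate block, 7 to 24 with 1 array left out and 20 without replicates 1 and 4. Over all features the Cy3 calls went from 1816 higher and 1783 lower to 622 and 863 with the block. They were 2964 and 2741 with processed signals and 2303 and 2738 without obese replicate 1. The Cy5 calls went from 2834 and 2155 to 2614 and 2135 with the block and to 4243 and 3443 without obese replicate 1. The lean TU calls went from 32 and 17 to 296 and 5431 with median centring and to 0 and 0 with a trended, robust spread. The block gave no member for TU in either genotype or for their difference. The member median minus that of all features went under median centring from 0.06 to -0.22 in lean rats, 0.15 to 0.53 in obese rats, 0.10 to 0.78 for the difference, -0.25 to -1.32 in Cy3 and -0.13 to -0.47 in Cy5. Median centring also moved the lean median of all features from -0.02 to -0.21. In Cy3 it turned Rps14 (-0.44), Rpl15 (-0.73), Rpl41 (-1.03) and Rpl10 (-0.96), processed signals turned Rps19 (0.30), and the mean of the probes turned Rps2 (0.0418 in Cy3 and 0.00435 in Cy5). The cause of these changes was not tested. For the genes named, 2500 other values kept direction and side of the threshold, 112 lost the call, 52 gained it, 105 moved and 7 turned. Signal over background limits Rps12l4, well above background in Cy5 on 3 arrays, and single dim spots such as those of Rpl3 and Rpl37al2 on obese replicate 4 limit the comparisons within a dye. The number of arrays, 4 a genotype, limits all of them.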
